A study of Rattus norvegicus with 6 samples.

Results

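Genes of prostaglandin synthesis, reception and breakdown were followed in rat adipose-derived stem cells (ADSCs) with and without adipogenic induction. They were chosen as a fixed list of 10 symbols, each read from the array feature annotated with that symbol alone, and all 10 were found among 18166 measured genes. They comprise 5 synthesis enzymes (Ptgs1, Ptgs2, Ptges, Ptgis and Ptgds), 4 receptors (Ptger2, Ptger3, Ptger4 and Ptgfr) and 1 breakdown enzyme (Hpgd). The cells came from inguinal fat of female Wistar rats aged 2 weeks, and no genotype or transgene is given in the labels. Control cultures (3 arrays) were kept in α-MEM with 10% serum. Induced cultures (3 arrays) had 7 days of adipogenic medium with 20% serum, 1 µM of the glucocorticoid dexamethasone, 5 µg/ml insulin and 0.5 mM 3-isobutyl-1-methylxanthine (a phosphodiesterase inhibitor that raises cAMP), so the agents and the serum cannot be told apart. The sample titles call the arrays of each group biological replicates 1 to 3. Whether these replicates came from separate animals or pooled tissue, and how long controls were cultured, the labels do not say. The p-values measure the spread between these cultures.

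Prostaglandins are short-lived lipid signals made from arachidonic acid. Phospholipases free the acid from membranes, the cyclooxygenases Ptgs1 (usually constitutive) and Ptgs2 (inducible by cytokines and repressed by glucocorticoids) turn it into prostaglandin H2, and terminal synthases such as Ptges, Ptgis and Ptgds make prostaglandin E2, prostacyclin and prostaglandin D2 from it. The products act on G protein-coupled receptors at the cell surface and are inactivated by Hpgd after uptake. In fat tissue, prostaglandin E2 is known to restrain lipolysis through the receptor encoded by Ptger3, and prostaglandin F2α acting on Ptgfr is known to hold back adipocyte differentiation.

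The start regions of Ptgs2, Ptger3 and Hpgd are shown because these were the 3 members whose mean signal differed by at least 1 on the log2 scale. Each window runs from 250 bases before to 50 bases after the start site in the RefSeq table of the GRCr8 assembly, in which 9 of the 10 members had an entry (all but Ptgis). They lie at chr13:64713813-64714112 (plus strand, Ptgs2), chr2:249264832-249265131 (plus strand, Ptger3) and chr16:39034782-39035081 (minus strand, Hpgd), and are written 5′ to 3′ on the gene's strand. Capitals mark letters that match any of 9 motifs searched on both strands.
Ptgs2: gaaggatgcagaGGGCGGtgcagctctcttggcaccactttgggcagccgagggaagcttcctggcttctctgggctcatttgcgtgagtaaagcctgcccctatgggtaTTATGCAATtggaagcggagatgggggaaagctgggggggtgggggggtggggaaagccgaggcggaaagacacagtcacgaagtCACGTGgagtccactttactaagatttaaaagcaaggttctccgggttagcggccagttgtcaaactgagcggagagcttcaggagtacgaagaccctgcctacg
Ptger3: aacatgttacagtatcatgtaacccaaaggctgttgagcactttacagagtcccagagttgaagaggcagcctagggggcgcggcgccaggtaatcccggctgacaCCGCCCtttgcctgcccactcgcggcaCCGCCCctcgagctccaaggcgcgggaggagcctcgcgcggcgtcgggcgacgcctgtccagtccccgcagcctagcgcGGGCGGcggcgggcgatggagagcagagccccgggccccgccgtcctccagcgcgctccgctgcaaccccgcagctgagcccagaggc
Hpgd: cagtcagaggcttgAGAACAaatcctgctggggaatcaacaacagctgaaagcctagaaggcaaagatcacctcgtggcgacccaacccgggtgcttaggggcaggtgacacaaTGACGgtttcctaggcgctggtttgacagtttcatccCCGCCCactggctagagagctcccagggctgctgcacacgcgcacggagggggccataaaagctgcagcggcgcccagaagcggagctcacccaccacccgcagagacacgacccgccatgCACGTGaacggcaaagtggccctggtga
The motifs were the CRE half-site TGACG, the E-box CACGTG, the C/EBP motif TTNNGNAAT, the AP-1 motif TGANTCA, the nuclear receptor half-site AGGTCA, the glucocorticoid receptor half-site AGAACA, the TATA box TATAAA, the GC box GGGCGG and the NF-kB motif. Their matches occur in 21.2%, 6.42%, 12.3%, 7.33%, 16.2%, 20.7%, 14.2%, 33.1% and 4.18% of 33469 such windows, in that order. In the Ptgs2 window the C/EBP letters begin at -140 and an E-box at -55, counted from the start site, and a GC box at -238. The Ptger3 window held matches to the GC box alone, beginning at -144, -117 and -38. In the Hpgd window a glucocorticoid receptor half-site began at -236, a CRE half-site at -136, a GC box at -99 and an E-box at 23. In these 3 windows no match overlapped another. A match is a description of letters, and none of these windows was assayed.

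All values are log2 RMA signals, so a difference of 1 is a doubling, and every change is induced minus control with the standard error of the limma fit (SE). The arrays had gene medians from 6.37 to 6.45. A low signal cannot be read as absence, because the deposited values carry no detection call, and signals of different genes are not compared here because each gene has its own probes. In bulk cultures, fewer cells of a type and less RNA per cell cannot be told apart. The stromal markers Pdgfra and Thy1 read 11.61 to 12.26 and 11.84 to 12.33 in control cultures and 9.05 to 11.99 and 11.10 to 11.21 in induced ones. Of 7 stromal markers measured 0 passed and 6 had negative estimates (median -0.88), and the induced arrays lay wholly below the controls for Thy1 (-0.97, adjusted p = 0.0507 in limma), Cd44 (-0.95) and Nt5e (-1.10). Their part in the lower member signals described here was not tested. The endothelial marker Cdh5 and the mast cell marker Kit stayed between 4.47 and 5.41 on all 6 arrays. Of 5 endothelial markers measured 0 passed and 4 overlapped between the groups. The other, Tek, read 5.17, 5.28 and 6.51 in control and 4.83, 4.84 and 5.07 in induced cultures (change -0.74, adjusted p = 0.34 in limma). Of 7 mast cell markers measured 0 passed and 6 overlapped, while the dim Cpa3 lay wholly above (change 0.23). Of 8 mural cell markers 0 passed and 4 overlapped. Mcam (2.42) and Notch3 (0.80) lay wholly above the controls, and Abcc9 (-0.57) and Kcnj8 (-0.58) wholly below. The part of these cells in the member signals was not tested. Adipoq, a mature adipocyte marker, read 10.04, 7.62 and 6.98 in control replicates 1 to 3 and 11.89, 11.69 and 12.85 in induced ones.

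The receptor gene Ptger3 and the breakdown enzyme gene Hpgd had higher mean signals in induced cultures, and Ptgs2 and Ptgis had lower ones, but 0 of the 10 members passed an adjusted p of 0.05 in limma with Benjamini-Hochberg adjustment over all genes. Of all genes tested, 0.749% passed. At an unadjusted p under 0.05 there were 4 of 10 members (Ptger3, Ptgs2, Hpgd and Ptgis) against 17.6% of all genes. The means differed by at least 1 for 3 of 10 members, against 4.98% of genes: 2 were higher (2.81% of genes) and 1 lower (2.17%). The induced arrays lay wholly above the control arrays for 1 member (12.0% of genes) and wholly below for 2 (13.4%), so the groups were apart for 3 of 10 members and for 25.4% of all genes. The median change was -0.12 over the members and -0.01 over all genes. The members were chosen with earlier results of these data known, so these shares are a description and no test of the list.

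**Figure D1:**
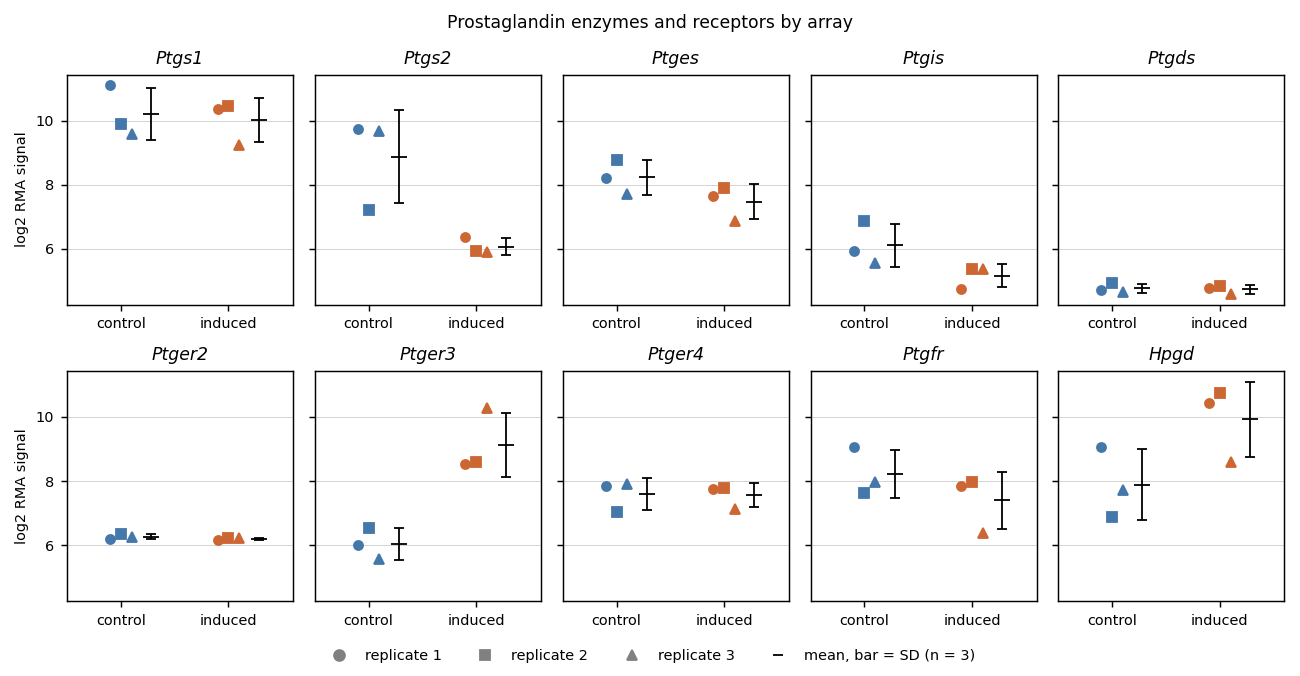
Log2 RMA signal of the 10 genes on each array (y axis, shared scale) for control and induced cultures (x axis); symbols mark replicates, and the bar gives the mean and SD of 3 arrays. Ptger3 separates the groups upwards and Ptgs2 and Ptgis downwards, while Ptgds and Ptger2 hardly vary.

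Of the 2 cyclooxygenase genes, Ptgs2 had the lower mean in induced cultures and Ptgs1 was nearly level, and neither passed. Ptgs2 read 9.73, 7.20 and 9.68 in control replicates 1 to 3 and 6.38, 5.94 and 5.90 in induced replicates 1 to 3. Every induced array lay below every control array, and control replicate 2 lay far nearer to the induced arrays than the other controls did. The change was -2.80 (SE 0.67, adjusted p = 0.116 in limma), a 6.96-fold lower mean, from 8.87 ± 1.45 to 6.07 ± 0.27 (SD, n = 3 each). Its control arrays spanned 2.53, a spread of 2 or more that Hpgd also had and that 0.694% of all genes reached. Without control replicate 2 the change was -3.63 and passed (adjusted p = 0.0157), and with any other single array left out it ran from -2.95 to -2.37 with adjusted p from 0.12 to 0.296.

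Ptgs1 read 11.11, 9.89 and 9.59 in control and 10.37, 10.45 and 9.24 in induced cultures. The groups overlapped in part, with control replicate 1 above every induced array and induced replicate 3 below every control array. Its change was -0.17 (SE 0.48, adjusted p = 0.897 in limma), with a 95% interval from -1.32 to 0.98, which includes a halving. The sign turned without control replicate 1 (0.29) and without induced replicate 3 (0.22). The change of Ptgs2 exceeded that of Ptgs1 in the downward direction by 2.63 within arrays, with an exact two-sided permutation p of 0.1, the smallest that 3 arrays against 3 allow (0.133 adjusted over the 4 member pairs compared).

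The 3 terminal synthases had lower or level means in induced cultures, and none passed. Ptges, the inducible prostaglandin E synthase that works with Ptgs2, read 8.22, 8.76 and 7.69 in control and 7.63, 7.91 and 6.87 in induced cultures. The ranges overlapped, since induced replicate 2 lay above control replicate 3. The change of Ptges was -0.75 (SE 0.35, adjusted p = 0.333 in limma). With the replicate number as a block in the fit the SE was 0.13 and the adjusted p 0.11, which did not pass either. Whether the numbers mark pairs is not known. Within arrays Ptgs2 changed by 2.04 more than Ptges in the downward direction (exact two-sided permutation p = 0.3).

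Ptgis, prostacyclin synthase, read 5.92, 6.86 and 5.54 in control and 4.74, 5.38 and 5.36 in induced cultures. The groups did not overlap, but induced replicates 2 and 3 came within 0.2 of control replicate 3, and control replicate 2 stood highest. Its change was -0.95 (SE 0.36, adjusted p = 0.247 in limma), and -0.57 without control replicate 2. Ptgds, which makes prostaglandin D2, stayed between 4.59 and 4.93 on all 6 arrays. Its change was -0.03 (SE 0.13), and the 95% interval of -0.34 to 0.28 bounds any difference in this signal, which may be compressed at low intensity.

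Ptgs1, Ptges and Ptgds, the last within a range of 0.35, each had their lowest array of both groups at replicate 3. The mean of 13 macrophage markers was low on the same arrays, at 6.61, 6.95 and 5.53 in control replicates 1 to 3 and 7.60, 7.09 and 5.89 in induced ones, and all 13 overlapped between the groups. Cd68 followed that pattern in control cultures, at 8.01, 8.60 and 5.96 in replicates 1 to 3. It did not in induced cultures, at 8.92, 8.38 and 9.45, the last being the highest of its 6 values. The macrophage gene C1qb read 8.17 and 7.60 on induced replicates 1 and 2 and 4.92 to 5.09 elsewhere. The mean of 7 stromal markers was also lowest of each group at replicate 3. It stood at 10.53, 10.25 and 10.04 in control replicates 1 to 3 and 10.08, 10.09 and 8.79 in induced ones. The part of macrophages or stromal cells in the signals of Ptgs1, Ptges and Ptgds was not tested.

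Among the receptors the largest estimate was that of Ptger3, the Gi-coupled prostaglandin E2 receptor that lowers cAMP. It read 5.99, 6.54 and 5.57 in control and 8.53, 8.58 and 10.29 in induced cultures. All induced arrays stood above all controls by at least 1.99, and induced replicate 3 was highest. The change was 3.10 (SE 0.51, adjusted p = 0.0594 in limma), an 8.57-fold higher mean, from 6.03 ± 0.49 to 9.13 ± 1.00 (SD, n = 3 each), and larger in size than the change of 99.7% of genes. Ptger3 missed the threshold with all arrays and passed without induced replicate 3, at a smaller change of 2.52 (adjusted p = 0.00789). Leaving out any other array gave 2.87 to 3.40 with adjusted p from 0.127 to 0.168.

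Ptger2 and Ptger4 encode the Gs-coupled prostaglandin E2 receptors, which raise cAMP. Ptger4 read 7.86, 7.02 and 7.89 in control and 7.76, 7.79 and 7.14 in induced cultures. Its groups overlapped, and each held 1 array, control replicate 2 and induced replicate 3, that lay lower than the rest. The change was -0.03 (SE 0.29, adjusted p = 0.977), with a 95% interval of -0.72 to 0.67, and its sign turned without control replicate 1 (0.11), control replicate 3 (0.12) or induced replicate 3 (0.19). Ptger2 stayed between 6.17 and 6.34, with a change of -0.06 (SE 0.10, 95% interval -0.30 to 0.18), and its 2 array features held identical values. Within arrays Ptger3 changed by 3.13 more than Ptger4 and by 3.16 more than Ptger2. Each had an exact two-sided permutation p of 0.1, the smallest possible (0.133 adjusted over the member pairs compared). Over all 6 arrays Ptger4 spanned 0.87 and Ptger2 0.17, less than the gap of 1.99 between the Ptger3 groups. These p-values were thus fixed by the Ptger3 values and add no separate evidence of a contrast between receptors.

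Ptgfr, the receptor of prostaglandin F2α, read 9.05, 7.62 and 7.99 in control and 7.86, 7.98 and 6.38 in induced cultures. Of these arrays 4 lay within 0.37 of each other, and the difference in means came from control replicate 1 at the top and induced replicate 3 at the bottom. The change was -0.81 (SE 0.53, adjusted p = 0.487 in limma), and it was -0.39 without control replicate 1 and -0.30 without induced replicate 3. On induced replicate 3 the mean of 7 stromal markers was also lowest, at 8.79 against 10.04 to 10.53 on the other 5 arrays, and 6 of the 7 were at their lowest there, Pdgfra by the most (9.05 against 11.61 to 12.26). Thy1 was the exception, with 11.21 its highest induced value. Their part in the Ptgfr signal was not tested.

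Hpgd, the dehydrogenase that starts prostaglandin inactivation, read 9.06, 6.86 and 7.72 in control and 10.43, 10.74 and 8.59 in induced cultures. The groups overlapped, because control replicate 1 lay above induced replicate 3. Its change was 2.04 (SE 0.72, adjusted p = 0.229 in limma), a 4.12-fold higher mean, from 7.88 ± 1.11 to 9.92 ± 1.16 (SD, n = 3 each). Both groups were wide, spanning 2.19 and 2.15, and an induced spread of 2 or more occurred for Hpgd alone of the members and for 1.70% of all genes. Without induced replicate 3 the change was 2.71 (adjusted p = 0.0612), and with any other array left out it lay between 1.53 and 2.63 with adjusted p from 0.185 to 0.492.

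**Figure D2:**
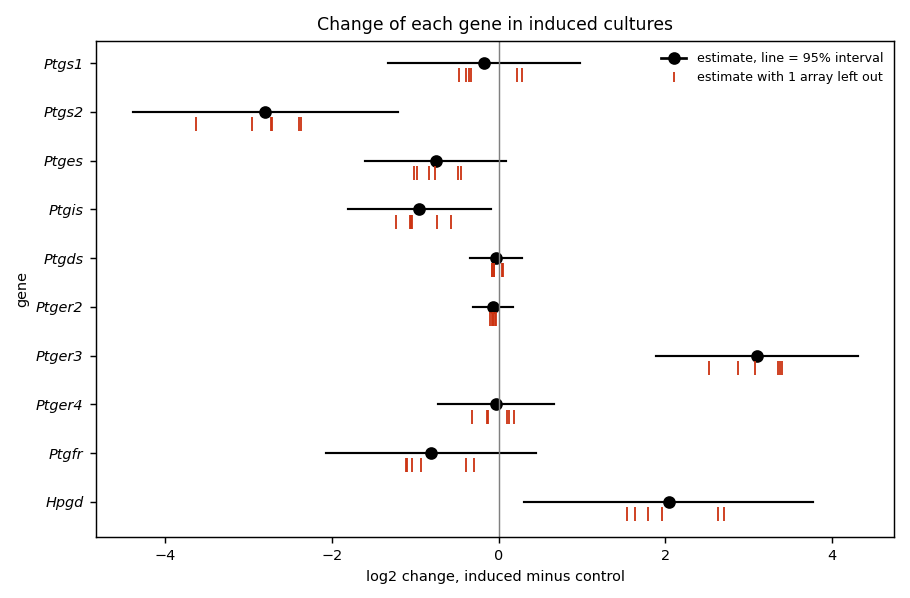
Log2 change of each gene (x axis), with the limma estimate as a point, its unadjusted 95% interval as a line, and the 6 estimates with 1 array left out as red ticks. The ticks of Ptgs1, Ptgds and Ptger4 fall on both sides of 0, while every other member keeps its sign in all 6.

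Set beside adipocyte markers, the members followed different courses over the arrays. The mean of 12 mature adipocyte markers was 8.68, 7.19 and 7.01 in control replicates 1 to 3 and 10.84, 10.81 and 11.69 in induced ones, and all 12 had induced arrays above control arrays. Ptger3 shared the highest array, induced replicate 3, but control replicate 1, where the marker mean exceeded the other controls, read 5.99 for Ptger3, between the other 2 controls. Hpgd showed the reverse: control replicate 1 was its highest control by 1.34, and induced replicate 3 its lowest induced array. Ptgs2 was as high on control replicate 1 as on control replicate 3, although the marker mean there differed by 1.67. The part of the number of adipocytes in any of these signals was not tested.

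**Figure D3:**
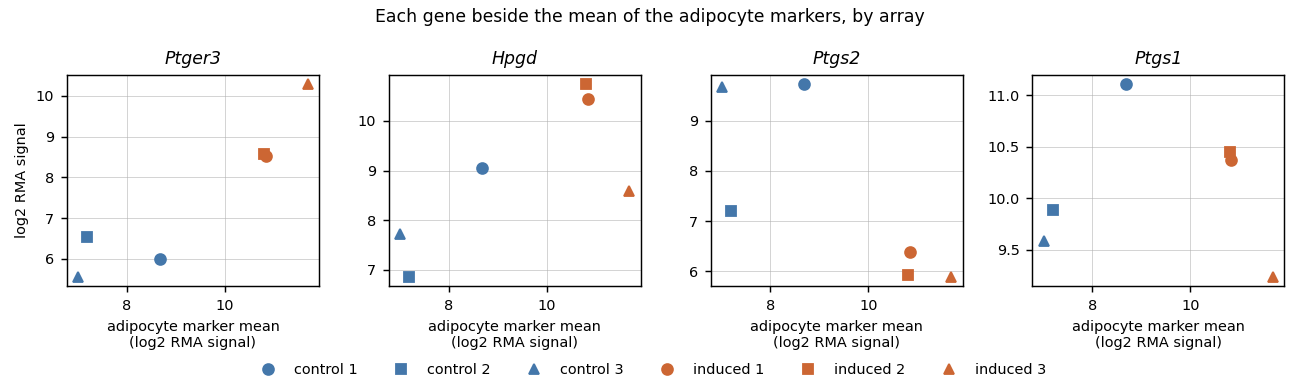
Log2 RMA signal of Ptger3, Hpgd, Ptgs2 and Ptgs1 (y axes, separate scales) against the mean of 12 adipocyte markers on the same array (x axes); colour marks the group and symbol the replicate. Induced replicate 3 has the highest marker mean, the highest Ptger3 and the lowest induced Hpgd.

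Ptger3 had both the smallest p and the widest range of the members, and the genes most like it over the 6 arrays were Hycc2 (r = 0.998), Rbm47 (r = 0.992) and Mc5r (r = 0.992). These led 1038 non-member genes with a range of at least 2, of which 29 had r above 0.98, so the likeness is shared by many genes. Rbm47 and Mc5r rose by 3.00 and 1.89 (adjusted p = 0.0469 and 0.0349 in limma), calls that held with induced replicate 3 left out and not with any other array left out (adjusted p from 0.0890 to 0.159), and Hycc2 stood at 1.94 (adjusted p = 0.0664). All 3 were highest on induced replicate 3, at 8.83, 9.76 and 8.15 for Hycc2, Rbm47 and Mc5r. These r values describe 6 arrays that share the group difference.

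The rest of the pathway was read from 6 lists of 71 genes, of which 65 were measured, and 3 passed (4.62%, against 0.749% of all genes): 2 higher and 1 lower. The lists were chosen with earlier results of these data known, so the 2 shares are a description and no test of the pathway. In arachidonate release and esterification 1 of 12 genes was called, Plaat3, an adipocyte phospholipase and acyltransferase. It read 8.14, 6.90 and 8.29 in control and 10.56, 10.58 and 11.76 in induced cultures, with no overlap, and rose by 3.19 (SE 0.47, adjusted p = 0.0465 in limma). The median of this list was 0.43. Among inducers and restraints of Ptgs2 and Ptges 2 of 21 passed, in opposite directions, with a list median of -0.03. Il1a, a cytokine that induces Ptgs2, fell by 1.76 (adjusted p = 0.0266), and Tsc22d3, a glucocorticoid-induced inhibitor of NF-kB signalling, rose by 2.31 (adjusted p = 0.0154). Il1a read 6.06, 6.60 and 6.11 in control and 4.64, 4.69 and 4.17 in induced cultures. The induced values were dim, since 25% of all gene signals lay below 4.94. Of the other cytokines in this list, Il1b (-0.08) and Tnf (0.03) were nearly level, and Il6 (-2.83) did not pass. Without induced replicate 3 the called genes Plaat3, Il1a and Tsc22d3 all passed. With any other array left out Plaat3 (adjusted p from 0.0907 to 0.159) and Il1a (0.0537 to 0.112) did not, and Tsc22d3 did not without control replicate 2 (0.0706), induced replicate 1 (0.102) or induced replicate 2 (0.0795).

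None passed in the other 4 lists (0 of 8, 0 of 5, 0 of 5 and 0 of 14 genes), where 2, 0, 2 and 1 had an unadjusted p under 0.05. These 5 of 32 genes (15.6%) are near the 17.6% of all genes. Under the alternatives, Cbr3 of the first list passed without induced replicate 3, without both replicate 3 arrays and with array weights. Ephx2 and Alox5ap of the list of 14 passed without both replicate 3 arrays. Of the other prostanoid synthases 7 of 8 had positive estimates, with a median of 0.40. Their largest were those of Cbr3, a carbonyl reductase that read 7.15, 6.45 and 6.57 in control and 8.03, 7.94 and 9.21 in induced cultures (change 1.67, adjusted p = 0.104), and Prxl2b, a prostamide and prostaglandin F synthase (0.64, adjusted p = 0.198). Of 5 genes in the list of other prostanoid receptors 4 had negative estimates, median -0.50. Ptgfrn, which is no receptor itself but an inhibitor of Ptgfr, stood at -1.06 (adjusted p = 0.284), and the prostacyclin receptor gene Ptgir at -0.66 (adjusted p = 0.285). Both were lowest on induced replicate 3, at 8.56 and 6.41, as Ptgfr was.

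In transport and breakdown (median -0.07 over 5 genes) the 2 largest estimates pointed apart. Slco2a1, the transporter that carries prostaglandins into cells for breakdown, read 7.36, 7.01 and 7.55 in control and 6.63, 6.39 and 6.73 in induced cultures. Its arrays did not overlap, and the change was -0.72 (SE 0.17, adjusted p = 0.118). Akr1c14, a steroid dehydrogenase of the aldo-keto reductase family, stood at 1.85 (adjusted p = 0.172). Among 14 other eicosanoid enzymes and receptors (median 0.23) the largest estimates were those of Ephx2, the soluble epoxide hydrolase, at 1.37 (adjusted p = 0.211), and the epoxygenase Cyp2j4 at 0.64 (adjusted p = 0.524).

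**Figure D4:**
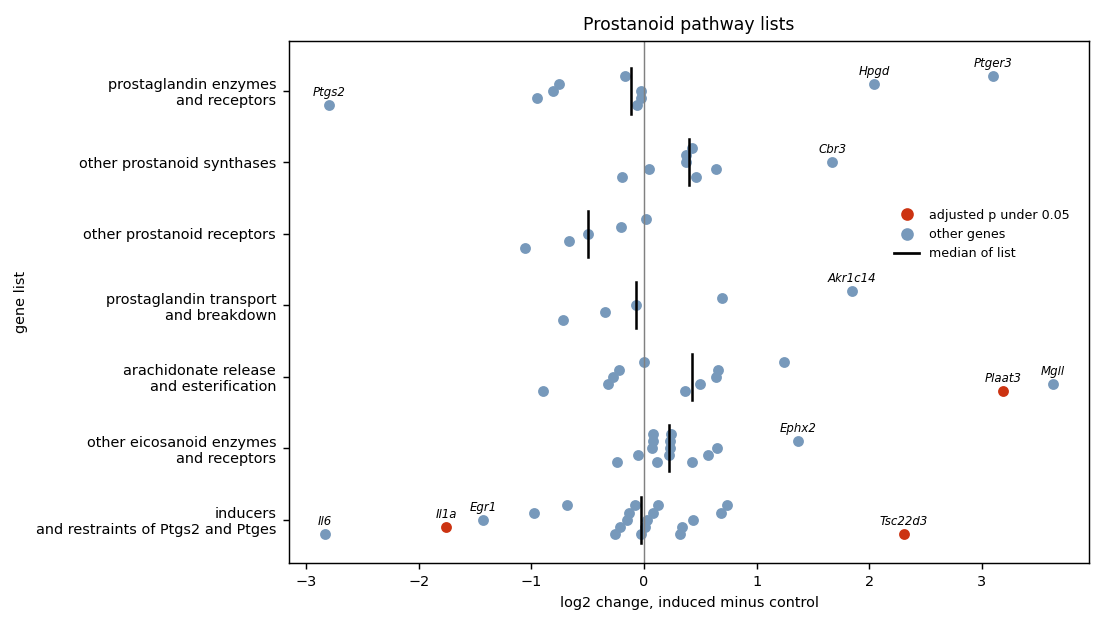
Log2 change (x axis) of each measured gene in the 7 lists (y axis), with genes past an adjusted p of 0.05 in red, others in blue, and list medians as black bars; names are given for changes of at least 1.3 in size. The called genes are Plaat3 and Tsc22d3 on the right and Il1a on the left.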

How the data were processed

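RNA of 6 cultures was measured on single-colour Affymetrix arrays. The deposited values are log2 signals that the authors made with RMA, per the submitters' processing notes; the log2 scale was read from the values, and the version and the genome build are not given in the sources used here. RMA corrects background, normalizes by quantiles and summarises probes, so changes in total RNA cannot be seen and folds of dim genes are compressed. The platform annotation gave 18511 of 36685 features 1 symbol, 575 several and 17599 none; 18394 matched the RefSeq table by gene number. The feature with the highest mean was kept for each of 18166 genes. The test was limma 3.58.1 under R 4.3.3 (functions lmFit and eBayes; two-sided, 4 residual and 2.65 prior degrees of freedom), without a block, adjusting over all genes at 0.05. The fit was tested on simulated data. Members and lists were chosen with earlier results of these data known. All members are named; of each pathway list, called genes (at most 4) or else the 2 largest changes; and for the member with the smallest p and that with the widest range, the 3 most correlated genes with a range of at least 2. Alternatives changed the arrays, weights, variance model, scaling, filter, block and features. The number of arrays limits the precision. Promoter sequences are those of the RefSeq table.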

Additional observations from a re-analysis of the deposited data

How the results depend on the processing

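Of the 10 members 0 passed as analysed, against 0 to 1 with 1 array left out (Ptgs2 without control replicate 2, Ptger3 without induced replicate 3), 1 without both replicate 3 arrays (Ptger3, adjusted p = 0.00251), 2 with array weights (Ptger3, adjusted p = 0.0126, and Hpgd, 0.0331) and 1 without dim genes (Ptger3, 0.0456, with 7 members tested). Over its 16 alternatives the adjusted p of Ptger3 ran from 0.00251 to 0.168, that of Ptgs2 from 0.0157 to 0.296 and that of Hpgd from 0.0331 to 0.492, with their signs kept. With 1 array left out the change of Ptgs1 ran from -0.48 to 0.29, that of Ptgds from -0.083 to 0.055 and that of Ptger4 from -0.31 to 0.19. Array weights, which were lowest for induced replicate 3 (0.273), turned Ptgs1 (0.25) and Ptger4 (0.30), and leaving out both replicate 3 arrays turned Ptger4 (0.34). Genes called numbered 136, and 2 to 557 with 1 array left out, 740 without both replicate 3 arrays, 929 with array weights and 69 over all features. Pathway genes called numbered 3, and 0 to 7, 9 and 7 under the first 3 of these settings. With the replicate number as a block 12 genes and 0 pathway genes were called, and 0 members. Same-numbered deviations from the group means correlated at r = 0.02, 0.12 and 0.15, the last being the highest r of any control and induced pair. Control replicate 1 correlated slightly better with induced replicate 2 (0.04), and replicate 3 of either group correlated negatively with the other numbers (-0.14 to -0.04). These r cannot decide whether the numbers mark pairs, because deviations from a mean of 3 arrays are tied to each other. The labels do not say either, so pairing stays unresolved and the main fit has no block. The cause of these shifts was not tested.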

Other observations

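Genes outside the naming rule, chosen after their values were seen, differed by more than most of the members, and none of these passed with all arrays weighted equally. Mgll, the monoacylglycerol lipase that can release arachidonic acid from an endocannabinoid, read 6.34, 5.54 and 7.01 in control and 9.23, 9.18 and 11.38 in induced cultures (change 3.63, adjusted p = 0.0749 in limma). Pla2g4a, the cytosolic phospholipase A2 that supplies the cyclooxygenases, stood at -0.90 (adjusted p = 0.16), with its 3 induced arrays (5.87 to 6.56) below its 3 controls (6.81 to 7.51). Pla2g15 of the same list went the other way, at 1.24 (adjusted p = 0.139), with induced arrays (7.30 to 8.56) above controls (6.30 to 6.77). Of the 12 genes measured in that list, arachidonate release and esterification, 7 had positive and 5 negative estimates. Il6 read 8.59, 9.47 and 8.02 in control and 6.28, 6.81 and 4.49 in induced cultures (change -2.83, adjusted p = 0.107). Control replicate 2, the array on which Ptgs2 was lowest among controls, was the highest for Il6. Hif1a, a hypoxia factor, stood at -0.98 (adjusted p = 0.0774) and read 10.77, 10.84 and 10.76 in induced cultures against 11.38 to 11.98 in control. Mgll and Il6 passed without induced replicate 3, without both replicate 3 arrays and with array weights. Hif1a passed without control replicate 1 and with array weights. Pla2g4a and Pla2g15 passed under none of the 16 alternatives run.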
